A study of Homo sapiens with 8 samples.

Results

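The nuclear-encoded subunits of oxidative phosphorylation were followed in Jurkat cells with and without CBAP, a protein encoded by TMEM102. The members were the genes whose names begin as those of the subunits of complexes I, III, IV and V do (NDUFA, NDUFB, NDUFC, NDUFS, NDUFV, UQCR, CYC1, COX4 to COX8 and ATP5). Of 77 matching names, 5 were left out because they named a pseudogene, a related protein or several genes at once. The remaining 72 of the 13453 genes in the table were 38 of complex I, 10 of complex III, 11 of complex IV and 13 of complex V. They comprised 69 subunits, the paralogous loci NDUFA4L2 and UQCRHL, and NDUFB2-AS1, an RNA antisense to NDUFB2. NDUFA4 is grouped with complex I by its name, although its protein is now also regarded as belonging with complex IV. In total, 71 members were abundant enough to be tested and only NDUFB2-AS1, with a mean FPKM of 0.467, was not. Some subunits, such as those named in the table jointly with a neighbouring gene, lie outside the name rule and were not counted.

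Jurkat is an established human T-cell acute lymphoblastic leukemia line. RNA from 4 kinds of Jurkat cells was sequenced, with 2 libraries of each. The shRNA set comprised sh-Ctrl cells, which carry a control shRNA, and sh-CBAP cells, in which an shRNA against CBAP was expressed stably from a lentivirus. The CRISPR set comprised CBAP-KO cells expressing GFP and CBAP-reconstituted cells, which are CBAP-KO cells expressing CBAP-GFP, so both conditions of this set carry the knockout and differ in the protein put back. Each set was compared with its own CBAP-expressing control. The cells are selected lines or clones, and nothing in the labels says that the libraries of a condition came from separate cultures, so p-values measure only the spread between these samples. The method of removing CBAP, the clones and any difference in handling between the sets cannot be told apart. Within a set, CBAP and the line or clone cannot be told apart either.

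The values are FPKM, fragment counts scaled to the length of a gene's exons and to the number of fragments mapped in the library, so they can be compared between genes, but the depth behind them is unknown. They summed to between 362082 and 434742 per library. TMEM102 had an FPKM of 4.07 and 4.74 in sh-Ctrl cells and of 2.69 and 2.89 in sh-CBAP cells, and the CRISPR set listed it at 0 throughout, so its labels have no check on the gene that was targeted. All 11 markers of T-ALL and Jurkat cells were detected in every library, and CD3D lay between 446 and 553. Some other markers varied more, and CD2, CD7 and CD28 were lowest in CBAP-reconstituted cells. CD28 had 24.1 and 29.2 in sh-Ctrl, 27.4 and 28.8 in sh-CBAP, 2.93 and 2.59 in CBAP-reconstituted and 35.5 and 37.5 in CBAP-KO cells. Of the 11 markers 6 rose and 1 fell in CBAP-KO cells, against 23.9% and 25.9% of all tested genes. In sh-CBAP cells 2 rose and 2 fell, against 3.62% and 8.7%. Among markers of other cell types, CD79A of B cells had 22.5 and 14.5 in sh-Ctrl, 13 and 15.9 in sh-CBAP, 0.73 and 1.09 in CBAP-reconstituted and 9.60 and 9.91 in CBAP-KO cells, and the epithelial KRT8 and KRT18 reached at most 2.505, and the part of these in the results was not tested. Over genes, which are no independent replicates, both libraries of a condition correlated with a Pearson's r of 0.992 for CBAP-reconstituted cells and 0.923 to 0.953 for the others. Each library listed 606 to 1256 genes at 0, and 710 genes with such a value reached 5 FPKM or more elsewhere, so a listed 0 was not read as absence.

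Oxidative phosphorylation takes place in the inner mitochondrial membrane. Complex I takes electrons from NADH and complex II from succinate, ubiquinone carries them to complex III, cytochrome c carries them to complex IV, and complex IV passes them to oxygen. Complexes I, III and IV pump protons, and complex V, the ATP synthase, uses the proton gradient to make ATP. Complexes I, III, IV and V combine subunits encoded in the nucleus with a few encoded in mitochondrial DNA, and the nuclear genes are known as targets of the transcription factors NRF1, YY1 and the ETS factor GABP.

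These factors bind short motifs near transcription start sites, so the promoters of the subunits were searched for them. A RefSeq promoter of GRCh38.p14, 250 bases before the start to 50 after it, was matched to 58 of the 69 subunits. The NRF1 motif GCGCNNGCGC was found in 14 of the 58 (24.1%), against 8.78% of all 27305 promoters and 16.4% of the 9802 promoters of genes in the table. The ETS motif CCGGAAG was found in 17 (29.3%, against 10.7% and 19.4%) and the YY1 motif AAGATGGCG in 7 (12.1%, against 1.85% and 4.09%). Both strands were searched, and the NRF1 motif reads the same on both. The windows below are those of the subunit with the largest fall in CBAP-KO cells in each complex, and of one that rose, among subunits with a motif in the window and no listed 0, read 5′ to 3′ on the gene's strand, with the motif letters in capitals. They are shown because motif letters stood both in promoters of genes that fell and in that of UQCR10, which rose.
NDUFS4 (chr5:53560389-53560688, plus strand): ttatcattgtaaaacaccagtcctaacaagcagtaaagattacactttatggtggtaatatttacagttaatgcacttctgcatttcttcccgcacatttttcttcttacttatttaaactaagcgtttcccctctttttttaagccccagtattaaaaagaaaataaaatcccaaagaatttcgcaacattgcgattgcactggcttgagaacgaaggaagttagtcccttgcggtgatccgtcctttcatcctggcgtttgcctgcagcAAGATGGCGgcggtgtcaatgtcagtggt
UQCRFS1 (chr19:29213102-29213401, minus strand): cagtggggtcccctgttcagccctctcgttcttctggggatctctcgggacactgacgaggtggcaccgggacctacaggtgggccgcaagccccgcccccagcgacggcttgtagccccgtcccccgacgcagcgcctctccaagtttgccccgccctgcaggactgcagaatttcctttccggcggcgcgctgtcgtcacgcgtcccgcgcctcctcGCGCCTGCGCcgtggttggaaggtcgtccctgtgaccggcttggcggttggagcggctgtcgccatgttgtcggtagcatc
COX6A1 (chr12:120437863-120438162, plus strand): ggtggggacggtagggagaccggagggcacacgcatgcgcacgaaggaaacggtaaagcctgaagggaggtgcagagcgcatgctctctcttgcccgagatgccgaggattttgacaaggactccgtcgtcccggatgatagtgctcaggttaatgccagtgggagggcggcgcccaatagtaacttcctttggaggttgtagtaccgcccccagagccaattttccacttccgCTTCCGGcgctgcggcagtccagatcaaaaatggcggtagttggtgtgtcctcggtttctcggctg
ATP5I (chr4:674227-674526, minus strand): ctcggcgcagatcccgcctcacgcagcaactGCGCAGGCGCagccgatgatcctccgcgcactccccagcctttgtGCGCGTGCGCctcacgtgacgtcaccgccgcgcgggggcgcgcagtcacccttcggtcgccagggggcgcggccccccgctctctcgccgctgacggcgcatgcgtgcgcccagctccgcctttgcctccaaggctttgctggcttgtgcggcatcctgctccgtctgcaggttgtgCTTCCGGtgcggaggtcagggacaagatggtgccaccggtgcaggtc
UQCR10 (chr22:29767119-29767418, plus strand): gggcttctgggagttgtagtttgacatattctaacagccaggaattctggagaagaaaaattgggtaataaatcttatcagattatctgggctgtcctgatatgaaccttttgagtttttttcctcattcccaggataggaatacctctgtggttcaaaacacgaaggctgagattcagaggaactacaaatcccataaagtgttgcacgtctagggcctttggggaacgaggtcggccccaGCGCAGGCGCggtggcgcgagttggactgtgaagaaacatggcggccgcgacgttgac
The capitals mark a YY1 motif in NDUFS4, an NRF1 motif in UQCRFS1, an ETS motif read on the opposite strand in COX6A1, 2 NRF1 motifs and an ETS motif on the opposite strand in ATP5I, and an NRF1 motif in UQCR10. Among the subunits with a matched promoter and no listed 0, the median CRISPR-set log2 fold change was -0.40 with any of the motifs and -0.52 with none. A match is a description of the letters in the window and was not tested for binding.

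Subunit RNA was abundant in all 4 conditions. Over the 66 members with no listed 0 in any library, FPKM values summed to 10628 and 10504 in sh-Ctrl cells, 9661 and 9978 in sh-CBAP cells, 11590 and 11599 in CBAP-reconstituted cells and 8552 and 8573 in CBAP-KO cells. The CBAP-deficient libraries were below their own controls in both sets, and the gap was wider in the CRISPR set. As a share of all FPKM, the members took 2.75% to 2.81% of the total in both controls, 2.74% and 2.60% in sh-CBAP cells, and 2.31% and 2.21% in CBAP-KO cells. In the CRISPR set each complex had a lower sum in both CBAP-KO libraries than in both CBAP-reconstituted ones. The complex I sum was 4795 and 4803 against 3420.2 and 3443, that of complex III 1448 and 1433 against 1169 and 1099, that of complex IV 2681 and 2709.9 against 2110.3 and 2153, and that of complex V 2666 and 2654 against 1853 and 1878. ATP5B, COX7C and COX8A were among the most abundant members, and NDUFV3 and NDUFA4L2 among the least abundant.

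**Figure D1:**
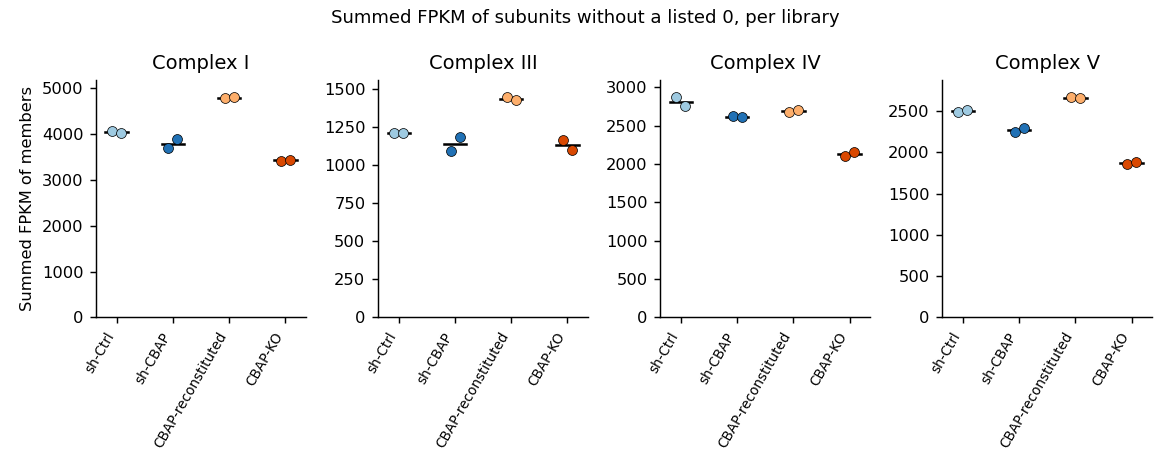
Summed FPKM (vertical axis, from 0) of the subunits with no listed 0, per complex (panels) and condition (horizontal axis); points are the 2 libraries of a condition and lines their mean. In each panel both CBAP-KO libraries lie below both CBAP-reconstituted libraries, and the gap between sh-CBAP and sh-Ctrl libraries is narrower.

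The comparison of CBAP-KO with CBAP-reconstituted cells asks how the subunit genes differ between CBAP-KO cells expressing GFP and CBAP-KO cells expressing CBAP-GFP. The paper describes such lines as stable clones, so CBAP and differences between clones cannot be told apart in this comparison. In CBAP-KO cells 52 of the 71 tested members fell (73.2%, limma with Benjamini-Hochberg adjustment at 0.05), where 25.9% of all 11427 tested genes did. Only ATP5A1, COX7A2L, NDUFA4L2, UQCR10 and UQCRC2 rose (7.04%, against 23.9% of all genes), and 14 members did not pass the test. Of all tested genes 49.9% changed in one direction or the other. The median log2 fold change was -0.50 over the tested members and 0.00 over all tested genes. With quantile normalization the members' median was -0.282, with 40 falls and 8 rises. In bulk RNA scaled to a library total, less of these transcripts per cell and more of other RNA cannot be told apart. Of the 66 members with no listed 0, 51 fell, 5 rose and 10 did not pass. In the same 66, both CBAP-KO libraries lay below both controls for 56, and both above for 7, against 42.7% and 43% of all tested genes. The falls were spread over the complexes. In complex I 28 of 37 tested members fell and 1 rose (median -0.50), in complex III 7 of 10 fell and 2 rose (median -0.62), in complex IV 7 of 11 fell and 1 rose (median -0.40), and in complex V 10 of 13 fell and 1 rose (median -0.56). Across the 18 settings compared, the reported one included, 40 members fell in every setting that tested them, and ATP5A1, COX7A2L and NDUFA4L2 rose in every such setting. The count of rises was 3 without CBAP-reconstituted replicate 1, CBAP-reconstituted replicate 2 or CBAP-KO replicate 1.

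**Figure D2:**
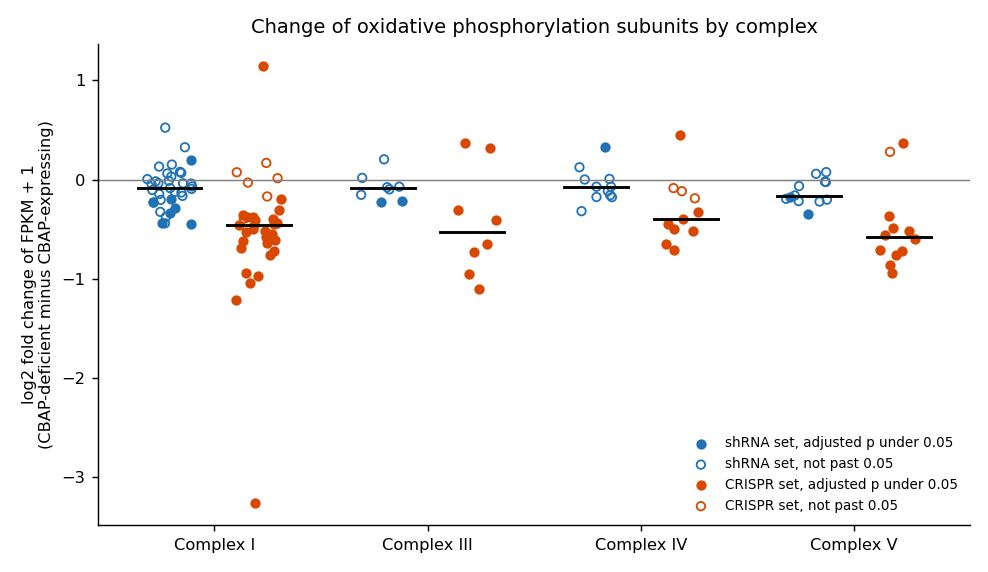
Log2 fold change of FPKM + 1 (vertical axis) of each subunit with no listed 0 by complex (horizontal axis), in the shRNA set (blue) and the CRISPR set (orange); filled points passed the test at an adjusted p under 0.05 and black lines are medians. The CRISPR-set medians lie below those of the shRNA set in each complex, and NDUFA4 lies lowest at -3.26.

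Transcript length and abundance moved with this result. The median canonical transcript of the members was 760 bases long (276 to 11660), against 3254 for the tested genes. The other 260 tested genes with a transcript under 1000 bases, a mean FPKM of at least 50 and no listed 0 had a median log2 fold change of -0.52 in the CRISPR set, and 69.2% of them fell and 6.92% rose. The 40 members of the same length and level had a median of -0.49, and 85% of them fell. Among all other tested genes of known length, those with a listed 0 included, the median rose over broad groups of length. It was -0.38 under 1000 bases (712 genes), -0.21 from 1000 to 2000 (1962 genes) and 0.06 for longer ones (8000 genes). The shortest genes broke this order. The median was 0 under 500 bases (153 genes), -0.442 from 500 to 750 (219 genes) and -0.435 from 750 to 1000 (340 genes). The 24 members of at least 1000 bases with no listed 0 had a median of -0.48, and 66.7% of them fell and 12.5% rose. Among the other genes, 40.8% of those of 1000 to 2000 bases and 20.8% of the longer ones fell. These length groups were not matched for abundance or listed zeros. Of the other tested genes of any length, 47.5% fell at a mean FPKM of at least 50 and 23.8% at 5 to 50. The part of length and abundance in the fall of the subunits was not tested.

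**Figure D3:**
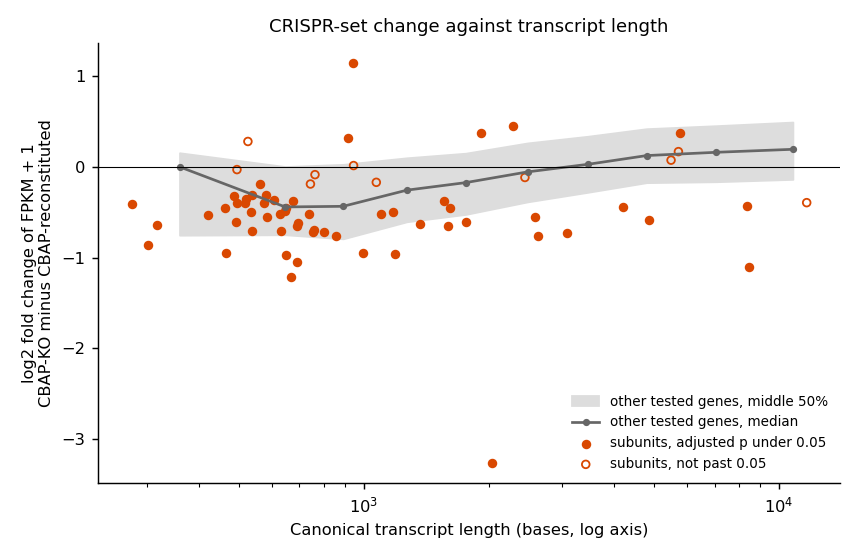
CRISPR-set log2 fold change of FPKM + 1 (vertical axis) against the canonical transcript length in bases (horizontal log axis) for the subunits with no listed 0 (orange, filled where the adjusted p was under 0.05), with the median and middle 50% of the other tested genes in bins of length (grey). Many short subunits lie within the band of other short genes, and several subunits of over 2000 bases lie below it.

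In complex I, NDUFA4 had the largest fall among members with no listed 0. Its gene (chr7:10971570-10979780, minus strand, GRCh37 as for all gene positions here) had an FPKM of 143 and 127 in CBAP-reconstituted cells and 13 and 13.2 in CBAP-KO cells. The values did not overlap, and the CBAP-reconstituted libraries stood apart from all others, since the FPKM was 20.7 and 19.9 in sh-Ctrl cells and 22.5 and 38.9 in sh-CBAP cells. In CBAP-KO cells NDUFA4 was 10.3-fold lower on the FPKM scale (log2 fold change -3.26, standard error 0.24, adjusted p = 0.00028), and the FPKM of CBAP-reconstituted cells was 6.64 times that of sh-Ctrl cells. NDUFS4 (chr5:52856463-52979168, plus strand), an accessory subunit of the NADH-oxidising arm whose promoter is printed above, had 96.2 and 98.6 in CBAP-reconstituted cells and 39.1 and 44 in CBAP-KO cells. Both CBAP-KO libraries lay well below both controls. It fell by 57.4% (log2 fold change -1.21, standard error 0.082, adjusted p = 0.00022).

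The core subunits of complex I hold its redox centres. NDUFV1 (chr11:67373124-67380025, plus strand), which binds NADH and the flavin, had 91 and 90.9 in CBAP-reconstituted cells and 71.3 and 68.3 in CBAP-KO cells. The groups did not overlap. It fell by 23.3% (log2 fold change -0.38, standard error 0.046, adjusted p = 0.0015). NDUFS1 (chr2:206979541-207024233, minus strand), the largest iron-sulfur subunit, had 37.8 and 37.5 in CBAP-reconstituted cells and 28.2 and 28.6 in CBAP-KO cells. Its CBAP-KO libraries also lay below both controls, but it did not pass the test (log2 fold change -0.39, 95% interval -0.76 to -0.03, adjusted p = 0.071).

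Accessory subunits of complex I covered a wide range. NDUFA8 (chr9:124906337-124922058, minus strand), of the intermembrane space, had 78.7 and 78.9 in CBAP-reconstituted cells and 48.2 and 46.7 in CBAP-KO cells and NDUFA10 (chr2:240831867-240965160, minus strand), of the membrane arm, had 65.4 and 66.6 in CBAP-reconstituted cells and 41.2 and 46.5 in CBAP-KO cells. Neither overlapped between the groups. NDUFA8 fell by 39.8% (log2 fold change -0.72, standard error 0.062, adjusted p = 0.0005). NDUFA10 fell by 33.6% (log2 fold change -0.58, standard error 0.072, adjusted p = 0.0017). NDUFA12 (chr12:95289073-95397524, minus strand), which joins late in assembly, had 134 and 134 in CBAP-reconstituted cells and 120.0 and 114 in CBAP-KO cells and a small fall (log2 fold change -0.19, standard error 0.047, adjusted p = 0.018). Under quantile normalization its log2 fold change was 0.05, above 0, and its call was lost without CBAP-reconstituted replicate 1, CBAP-reconstituted replicate 2 or CBAP-KO replicate 2, with an adjusted p of up to 0.115. NDUFA4L2 (chr12:57628686-57634498, minus strand), the low-level paralog of NDUFA4 known to be induced by HIF1, was the complex I member that rose. Its FPKM was 1.65 and 1.55 in CBAP-reconstituted cells and 4.67 and 4.86 in CBAP-KO cells. These did not overlap (log2 fold change 1.15, standard error 0.10, adjusted p = 0.00054), and the scale of FPKM + 1 understates the change at this level.

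In complex III, cytochrome c1 and the Rieske protein, which pass on the electrons, fell. CYC1 (chr8:145149942-145152428, plus strand), which encodes cytochrome c1, had 164 and 165 in CBAP-reconstituted cells and 86 and 83 in CBAP-KO cells. This was among the tightest differences of all the members, with no overlap. It fell by 48.8% (log2 fold change -0.96, standard error 0.042, adjusted p = 5.3e-05). In sh-Ctrl cells CYC1 had 116 and 118, between the values of the CRISPR-set conditions. UQCRFS1 (chr19:29696227-29704058, minus strand), the Rieske iron-sulfur protein, had 119 and 120.3 in CBAP-reconstituted cells and 70.2 and 73.9 in CBAP-KO cells. Its groups were also well apart. It fell by 39.9% (log2 fold change -0.73, standard error 0.052, adjusted p = 0.00026). UQCRB (chr8:97235175-97247774, minus strand), a small ubiquinone-binding subunit, had 52 and 54.6 in CBAP-reconstituted cells and 24 and 24.4 in CBAP-KO cells. Its CBAP-KO values lay near those of the shRNA set (19.9 and 19.6 in sh-Ctrl cells and 20.8 and 25.3 in sh-CBAP cells), and the CBAP-reconstituted libraries were the high ones. It fell by 54.6% (log2 fold change -1.11, standard error 0.094, adjusted p = 0.00047).

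The paired core proteins of complex III moved in opposite directions. UQCRC1 (chr3:48636435-48648409, minus strand) had 152 and 157 in CBAP-reconstituted cells and 99.4 and 97.2 in CBAP-KO cells. UQCRC2 (chr16:21964609-21994981, plus strand) had 134 and 138 in CBAP-reconstituted cells and 185 and 168 in CBAP-KO cells. The first was lower and the second higher in both CBAP-KO libraries. UQCRC1 fell by 36.4% (log2 fold change -0.65, standard error 0.042, adjusted p = 0.00021). UQCRC2 rose by 29.6% (log2 fold change 0.37, standard error 0.075, adjusted p = 0.0097). UQCR10 (chr22:30163358-30166402, plus strand), a small subunit, also rose, from 99.6 and 99.2 to 125 and 123. The groups did not overlap, but its adjusted p lay at the threshold (log2 fold change 0.32, standard error 0.10, adjusted p = 0.048). The call of UQCRC2 was lost without CBAP-reconstituted replicate 1, CBAP-reconstituted replicate 2 or CBAP-KO replicate 1 (adjusted p up to 0.0649), and that of UQCR10 without any single library of the CRISPR set or of sh-Ctrl cells (adjusted p up to 0.164).

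In complex IV, COX4I1 (chr16:85832239-85840674, plus strand), the subunit through which ATP is known to slow the enzyme, was nearly level. It had 318 and 301 in sh-Ctrl cells and 298 and 321 in sh-CBAP cells, and 349 and 338 in CBAP-reconstituted cells and 318 and 329 in CBAP-KO cells. The ranges overlapped in the shRNA set and were separated by a narrow margin in the CRISPR set, with a log2 fold change of -0.09 (95% interval -0.23 to 0.06, adjusted p = 0.26) in the latter. COX5A (chr15:75212132-75230424, minus strand) had 289.9 and 281 in CBAP-reconstituted cells and 207 and 197 in CBAP-KO cells. COX5B (chr2:98262525-98264846, plus strand), a zinc-binding subunit, had 268 and 258 in CBAP-reconstituted cells and 159 and 175 in CBAP-KO cells. Neither overlapped between the groups. COX5A fell by 29.4% (log2 fold change -0.50, standard error 0.055, adjusted p = 0.0012). COX5B fell by 36.6% (log2 fold change -0.65, standard error 0.065, adjusted p = 0.00078).

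Of the subunits of complex IV that exist as tissue isoforms, the table held the widely expressed forms. COX6A1 (chr12:120875893-120878540, plus strand) had 94.7 and 87.2 in CBAP-reconstituted cells and 55.5 and 54.9 in CBAP-KO cells, with no overlap and the largest fall among the members named COX. It fell by 39.3% (log2 fold change -0.71, standard error 0.088, adjusted p = 0.0017). COX6B1 (chr19:36139225-36149684, plus strand) had 239 and 240.0 in CBAP-reconstituted cells and 195 and 187 in CBAP-KO cells and COX7A2 (chr6:75947391-75960039, minus strand) had 207 and 200.4 in CBAP-reconstituted cells and 147 and 151 in CBAP-KO cells. Both were lower in CBAP-KO cells, COX6B1 by a log2 fold change of -0.33 (standard error 0.053, adjusted p = 0.0045) and COX7A2 by -0.45 (standard error 0.053, adjusted p = 0.0014). COX7A2L (chr2:42560686-42652228, minus strand), a relative of COX7A2 known for joining complexes III and IV into supercomplexes, went the other way. It had 43 and 42.7 in CBAP-reconstituted cells and 58.1 and 59.6 in CBAP-KO cells, and both CBAP-KO libraries were higher. It rose by 37.3% (log2 fold change 0.45, standard error 0.074, adjusted p = 0.0046).

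In complex V, the subunits of the catalytic head did not move together. ATP5B (chr12:57031959-57039768, minus strand), the catalytic beta subunit and the most abundant member, had 550.1 and 551 in CBAP-reconstituted cells and 366 and 358 in CBAP-KO cells. ATP5A1 (chr18:43660214-43684300, minus strand), the alpha subunit that alternates with it in the head, had 174 and 173 in CBAP-reconstituted cells and 229 and 221 in CBAP-KO cells. Beta was lower and alpha higher in both CBAP-KO libraries. ATP5B fell by 34.3% (log2 fold change -0.60, standard error 0.04, adjusted p = 0.00021). ATP5A1 rose by 29.5% (log2 fold change 0.37, standard error 0.063, adjusted p = 0.0053). ATP5D (chr19:1241745-1244824, plus strand), the delta subunit of the central stalk, had 174 and 171 in CBAP-reconstituted cells and 88.2 and 90.2 in CBAP-KO cells. Its groups lay far apart. It fell by 48.3% (log2 fold change -0.95, standard error 0.063, adjusted p = 0.00022).

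Subunits e and c of the membrane part of complex V fell. ATP5I (chr4:666225-668119, minus strand), the e subunit, which helps the enzyme to form dimers and whose promoter is printed above, had 420.0 and 406 in CBAP-reconstituted cells and 218 and 236 in CBAP-KO cells. Both CBAP-KO libraries lay far below. It fell by 45% (log2 fold change -0.86, standard error 0.061, adjusted p = 0.00026). The c subunit, which forms the proton-driven rotor ring, is encoded by 3 genes whose mature proteins are identical. ATP5G1 (chr17:46970127-46973233, plus strand) had 129 and 134 in CBAP-reconstituted cells and 93.4 and 93.2 in CBAP-KO cells, ATP5G2 (chr12:54026510-54071192, minus strand) had 310.3 and 297 in CBAP-reconstituted cells and 186 and 185 in CBAP-KO cells, and ATP5G3 (chr2:176040986-176046438, minus strand) had 90.2 and 92.2 in CBAP-reconstituted cells and 64.4 and 59.1 in CBAP-KO cells. All 3 were lower in both CBAP-KO libraries, with log2 fold changes of -0.49 (standard error 0.052, adjusted p = 0.001), -0.71 (standard error 0.088, adjusted p = 0.0017) and -0.56 (standard error 0.071, adjusted p = 0.0019). Their canonical transcripts matched at 70.4% to 86.9% of the aligned bases, so reads could be divided between them in ways the table does not show.

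**Figure D4:**
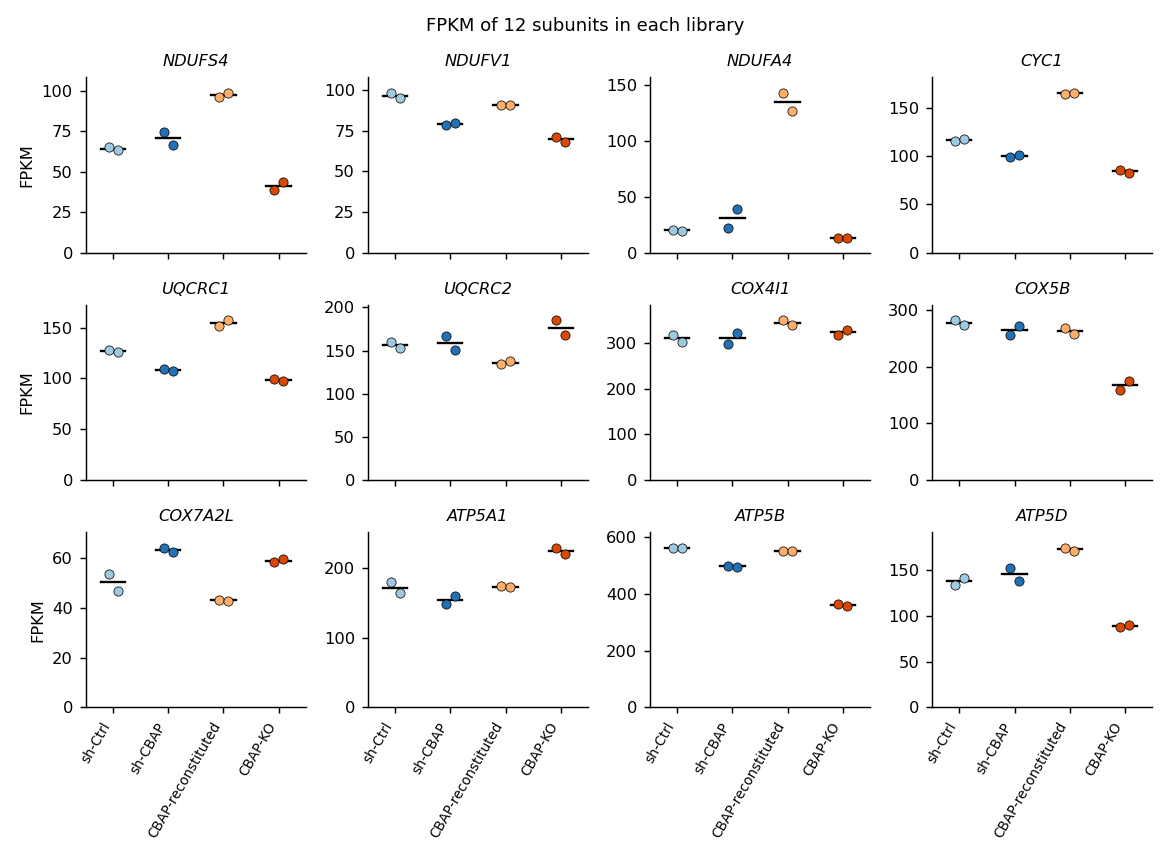
FPKM (vertical axis, from 0) of 12 subunits (panels) in the 2 libraries of each condition (points), with the mean as a line. NDUFA4 and NDUFS4 are highest in CBAP-reconstituted cells, ATP5A1, UQCRC2 and COX7A2L are higher in CBAP-KO than in CBAP-reconstituted cells, and COX4I1 is nearly level.

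The comparison of sh-CBAP with sh-Ctrl cells asks the same of lines with an shRNA against CBAP and with a control shRNA. Here 10 of the 71 members fell (14.1%, against 8.7% of all tested genes), 2 rose (against 3.62%) and 59 did not pass the test, with 23 below an unadjusted p of 0.05. The median log2 fold change was -0.09, and that of all tested genes -0.06. In the 66 members with no listed 0, both sh-CBAP libraries lay below both controls for 32 and above for 9, against 33.2% and 17.4% of all tested genes. By complex, 6 members of complex I, 2 of complex III, none of 11 in complex IV (where 2 had an unadjusted p under 0.05 and 1 rose) and 2 of complex V fell by limma. The 40 members with a transcript under 1000 bases, a mean FPKM of at least 50 and no listed 0 had a median of -0.07, and 10% of them fell, against -0.08 and 10.4% for the 260 other genes of that kind. These counts hung on single libraries and on scaling. The count of members that fell was 1 without sh-Ctrl replicate 1, 3 without sh-Ctrl replicate 2, 0 without either CBAP-reconstituted library, 3 without either CBAP-KO library and 16 without either sh-CBAP library. The count that rose was 5 without sh-CBAP replicate 1 and 0 or 1 without any other library. With upper-quartile scaling 4 fell and 4 rose, and with quantile normalization 2 fell and 4 rose. The libraries of the other set entered because all conditions shared one estimate of the spread.

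The largest fall in the shRNA set was that of NDUFA10, which had 59 and 59 in sh-Ctrl cells and 44.7 and 41.5 in sh-CBAP cells. Both sh-CBAP libraries were lower (log2 fold change -0.44, standard error 0.072, adjusted p = 0.02). NDUFA8 had 73.8 and 77.8 in sh-Ctrl cells and 53 and 58.4 in sh-CBAP cells, again without overlap (log2 fold change -0.44, standard error 0.062, adjusted p = 0.015). NDUFV1 had 98.2 and 94.9 in sh-Ctrl cells and 78.4 and 79.5 in sh-CBAP cells (log2 fold change -0.29, standard error 0.046, adjusted p = 0.02). In complex V, ATP5G1 had 156 and 153 in sh-Ctrl cells and 117 and 125 in sh-CBAP cells (log2 fold change -0.35, standard error 0.052, adjusted p = 0.017), and ATP5B had 563 and 561 in sh-Ctrl cells and 499 and 496 in sh-CBAP cells (log2 fold change -0.18, standard error 0.04, adjusted p = 0.046). Neither overlapped between the groups. In complex III, UQCRC1 had 128 and 126 in sh-Ctrl cells and 109 and 108 in sh-CBAP cells (log2 fold change -0.23, standard error 0.042, adjusted p = 0.027) and CYC1 had 116 and 118 in sh-Ctrl cells and 99.4 and 101 in sh-CBAP cells (log2 fold change -0.22, standard error 0.042, adjusted p = 0.03). Both were lower in both sh-CBAP libraries by small amounts.

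NDUFA12 and COX7A2L rose in the shRNA set. NDUFA12 had 133 and 138 in sh-Ctrl cells and 157 and 155 in sh-CBAP cells (log2 fold change 0.20, standard error 0.047, adjusted p = 0.049), and COX7A2L had 53.6 and 46.5 in sh-Ctrl cells and 63.9 and 62.4 in sh-CBAP cells (log2 fold change 0.33, standard error 0.074, adjusted p = 0.043). Neither overlapped between the groups. None of the 9 calls given here for the shRNA set held under every alternative tried. Each was lost without CBAP-reconstituted replicate 1 and without CBAP-reconstituted replicate 2, with adjusted p of 0.0575 for NDUFA8 to 0.14 for ATP5B at the most, and all but NDUFA8 also without at least 1 library of sh-Ctrl cells. The log2 fold changes of these 9 kept their sign throughout, from -0.508 for NDUFA8 to 0.434 for COX7A2L over the libraries left out. Of the 27 calls of the same kind in the CRISPR set, 23 held under every alternative.

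Set side by side, 10 members fell in both sets, among them ATP5B, ATP5G1, CYC1, NDUFA8, NDUFA10, NDUFV1 and UQCRC1, where 4.03% of all tested genes did, and 41 fell in the CRISPR set without being called in the shRNA set. COX7A2L rose in both, and NDUFA12 rose in the shRNA set and fell in the CRISPR set. For 31 of the 71 tested members both CBAP-deficient libraries lay below both controls in both sets, against 18% of all tested genes. These 31 include NDUFB8, whose CBAP-KO replicate 2 was a listed 0. The difference between the changes of the sets was tested directly, by subtracting the change in the CRISPR set from that in the shRNA set. It passed for 37 members, against 33.8% of all tested genes, with 35 above 0 and 2 below, against 15.5% and 18.3%. The count of 37 was 24 without CBAP-reconstituted replicate 1 and 21 without replicate 2. It passed for 16 members above 0 and 1 below in complex I, 6 above in complex III, 4 above in complex IV, and 9 above and 1 below in complex V.

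The widest differences among members with no listed 0 were 3.79 for NDUFA4 (adjusted p = 0.0011), 1.34 for NDUFS4 (adjusted p = 0.001), 1.31 for UQCRB (adjusted p = 0.0018) and 1.02 for ATP5D (adjusted p = 0.0011). In all 4 the fitted shRNA-set change was above 0 and did not pass the test, and the CRISPR-set change was a fall. The 2 members below 0 were ATP5A1 (-0.53, adjusted p = 0.0086) and NDUFA4L2 (-0.996, adjusted p = 0.0054). For COX7A2L (-0.12, adjusted p = 0.43), NDUFA10 (0.14, adjusted p = 0.34), NDUFV1 (0.09, adjusted p = 0.32) and ATP5G1 (0.14, adjusted p = 0.2) the difference between the sets did not pass the test.

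**Figure D5:**
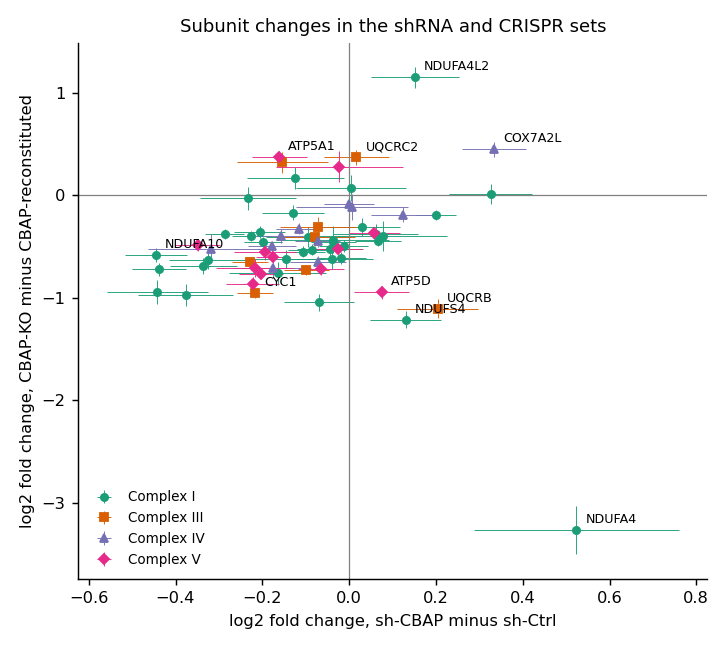
Log2 fold change of FPKM + 1 of each subunit with no listed 0 in the shRNA set (horizontal axis) against that in the CRISPR set (vertical axis), by complex, with bars of 1 standard error from limma. Most points lie below 0 on the vertical axis and within 0.45 of 0 on the horizontal one, and NDUFA4 lies apart at -3.26 on the vertical axis.

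Genes around the 4 complexes were described from lists of related genes. All 4 subunits of complex II, succinate dehydrogenase, fell in the CRISPR set, SDHB from 96.4 and 103 to 60.3 and 57.3 (log2 fold change -0.75, standard error 0.067, adjusted p = 0.00055), and none of the 4 was called in the shRNA set, where none had an unadjusted p under 0.05 except SDHC (0.0094). CYCS, cytochrome c itself, fell by 0.46 on the log2 scale in the CRISPR set, from 47.4 and 46.9 to 33.4 and 34.5. NDUFAB1, the acyl carrier protein of complex I, which the name rule does not take, went from 252 and 251 to 127 and 124 (log2 fold change -0.997, standard error 0.072, adjusted p = 0.00028). These genes were lower in CBAP-KO cells as most subunits were. Assembly factors, which help to build the complexes, fell in 10 of 14 cases for complex I, 3 of 4 for complex II, 4 of 6 for complex III and 12 of 21 for complex IV, against 25.9% of all tested genes. PET112, now named GATB, entered the complex IV list by its older name and is among its 12 falls. That count is of the list and not of assembly factors alone. A list around complex V, which mixes assembly factors with the inhibitor ATPIF1 and with small proteins that stay in the enzyme, had 2 of 6 falls, a share near that of all genes. The largest of these falls were those of SCO1, a copper chaperone of complex IV, at -1.31 (standard error 0.074, adjusted p = 0.00012), and of COX14 at -1.21 (standard error 0.21, adjusted p = 0.0052). SCO1 had 52.4 and 52.1 in CBAP-reconstituted cells, 21 and 19.8 in CBAP-KO cells and 30 and 32.2 in sh-Ctrl cells. For complex I NDUFAF3 (-0.98) and TMEM126B (-0.85) fell most, for complex II ACN9 (-0.83) and SDHAF1 (-0.47) and for complex III MNF1 (-0.61) and BCS1L (-0.51), all on the log2 scale. Around complex V the falls were those of USMG5, a small subunit of the enzyme (-1.01), and of TMEM70, an assembly factor (-0.55). COX19, another complex IV factor, was the one gene of these lists that rose (0.62, standard error 0.099, adjusted p = 0.0041), against 23.9% of all tested genes. In the shRNA set 2, 1, 1, 1 and 0 of them fell, in the order of complexes I to V, against 8.7% of all tested genes, with median log2 fold changes of -0.08 to -0.42, and none rose by limma, where 2 were higher at an unadjusted p under 0.05.

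Of the subunits encoded in mitochondrial DNA, the table held ND6, a complex I subunit, and CYTB, the cytochrome b of complex III. ND6 had 1094 and 1108 in CBAP-reconstituted cells and 3531 and 3503 in CBAP-KO cells, and CYTB had 1302 and 1266 in CBAP-reconstituted cells and 3572 and 3377 in CBAP-KO cells. Both were higher in both CBAP-KO libraries, opposite to most nuclear subunits (log2 fold change 1.67, standard error 0.36, adjusted p = 0.012 for ND6, and 1.43, standard error 0.44, adjusted p = 0.039 for CYTB). In the shRNA set ND6 had 1014 and 1158 in sh-Ctrl cells and 854 and 1965 in sh-CBAP cells, and CYTB had 928 and 1209 in sh-Ctrl cells and 846 and 2273 in sh-CBAP cells. Replicate 2 of sh-CBAP cells was high for both and replicate 1 was not, and neither passed the test. Together they took 0.556% and 0.546% of all FPKM in CBAP-reconstituted cells and 1.85% and 1.75% in CBAP-KO cells, and the part of this in the nuclear values, which are shares of the same total, was not tested.

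Of 18 regulators of respiratory genes and of mitochondrial DNA, 7 fell and 2 rose in the CRISPR set, against 25.9% and 23.9% of all tested genes, and 1 fell and 2 rose in the shRNA set, against 8.7% and 3.62%. TFB1M, a methyltransferase of the mitochondrial ribosomal RNA, fell in CBAP-KO cells from 13.4 and 14.1 to 5.88 and 5.61 (log2 fold change -1.13, standard error 0.096, adjusted p = 0.00048). TFB1M had 6.82 and 6.64 in sh-Ctrl cells and 4.78 and 5.87 in sh-CBAP cells, so its CBAP-reconstituted libraries were the high ones. SSBP1, which binds single-stranded mitochondrial DNA, fell in CBAP-KO cells from 235 and 237 to 139 and 143 (log2 fold change -0.74, standard error 0.076, adjusted p = 0.0009). GABPB2 rose (0.71, standard error 0.12, adjusted p = 0.0049), as did NRF1 (0.33, standard error 0.061, adjusted p = 0.007). TFAM, which packages and transcribes mitochondrial DNA, rose in sh-CBAP cells from 17.4 and 18.4 to 25.7 and 31 (log2 fold change 0.63, standard error 0.095, adjusted p = 0.017) and went from 33 and 32.5 to 29.8 and 31.7 in the CRISPR set, where it did not pass the test.

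Of the 72 members, 6 had a listed 0 and were kept apart. Among members with a mean FPKM of at least 10, 5 of 70 had one (7.14%), against 5.09% of the 6600 genes at that level. NDUFB8, of the membrane arm of complex I, had 124 and 129 in CBAP-reconstituted cells and 69.8 and 0 in CBAP-KO cells, and NDUFS3, of its peripheral arm, had 99.2 and 105 in sh-Ctrl cells and 105 and 0 in sh-CBAP cells and 119 and 123 in CBAP-reconstituted cells and 56.5 and 59.8 in CBAP-KO cells. UQCR11 was listed at 0 and 0 in sh-Ctrl cells and 53.1 and 45.2 in sh-CBAP cells, and at 58 and 57.1 in CBAP-reconstituted cells and 39.5 and 0 in CBAP-KO cells. UQCRQ was at a listed 0 throughout the shRNA set and had 50.7 and 52.1 in CBAP-reconstituted cells and 34.1 and 33.3 in CBAP-KO cells, a fall (log2 fold change -0.59, standard error 0.06, adjusted p = 0.00084). ATP5L was listed at 0 in every library but CBAP-KO replicate 1, where its FPKM was 115. NDUFB2-AS1 was listed at 0 in replicate 1 of sh-Ctrl and of sh-CBAP cells. Libraries of 1 condition stood on both sides for NDUFB8, UQCR11 and ATP5L in CBAP-KO cells and for NDUFS3 in sh-CBAP cells. Their fitted changes in those sets describe a listed 0 and were not read, nor were the shRNA-set changes of UQCR11 and ATP5L. NDUFS3 had no listed 0 in the CRISPR set, where both CBAP-KO libraries lay below both controls. NDUFB8 had none in the shRNA set, with 115 and 115 in sh-Ctrl cells and 99.4 and 107 in sh-CBAP cells. The listed 0 still entered the shared spread used to test these changes, and neither passed. The differences between the sets that passed for UQCR11 and UQCRQ rest on listed zeros, and without such members 33 differences lay above 0 and 2 below.

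Shared sequence limits some values. UQCRH and UQCRHL have canonical transcripts that match at 98.6% of 276 aligned bases, so reads can be split between them, and 41 of the 72 members have at least 1 named pseudogene in RefSeq. NDUFB2 overlaps NDUFB2-AS1, and strand in the counting is not given in the sources used here, so their reads cannot be told apart.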

How the data were processed

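RNA of 8 Jurkat libraries, 2 per condition, was isolated with RNeasy and sequenced as 100-base paired ends. The authors used CASAVA 1.8, Bowtie, TopHat and cuffdiff on hg19 and deposited FPKM per gene; the Cufflinks version, annotation and scaling are not given in the sources used here. No column was left unused. From the deposited FPKM, log2(FPKM + 1) was fitted with limma 3.58.1 (R 4.3.3, empirical Bayes with trend) for all 11427 genes averaging 1 FPKM or more, with 1 mean per condition, 4 residual degrees of freedom and Benjamini-Hochberg adjustment over all of them at 0.05. Log2 fold changes are on this scale and understate changes of low genes. Percent changes and folds use mean FPKM without a pseudocount. Intervals are 95% intervals from the model.

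Members with values were those with the largest called change in each complex, direction and set, the largest differences between the sets, core subunits, isoform families and members with a listed 0. From each related list up to 2 called genes of largest change were named. Members, lists and motifs were chosen with earlier results of these data known, and ND6, CYTB and complex sums were given beside them. Transcript lengths came from GENCODE 44 lifted to GRCh37 (found for 94% of tested genes) and promoters from RefSeq (GRCh38.p14). On data simulated for the CRISPR set over 11427 genes, the fit called 87% of 100 genes changed by 0.5 on the log2 scale and 100% of 100 changed by 1, with 13 false calls. The simulation gave all genes the same spread, modelled no listed zeros and changed only well-expressed genes. These rates need not hold for the real data. Alternatives changed the pseudocount, filter, scaling, trend, samples fitted, listed zeros, replicate block and single libraries. Depth is unknown, so precision rests on 2 libraries per condition.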

Additional observations from a re-analysis of the deposited data

Results flagged for a closer look

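The change upon CBAP loss differed between the shRNA and CRISPR sets (the log2 fold change of the first less that of the second, tested in limma with Benjamini-Hochberg adjustment) for 20 of the 33 named members that were tested. In complex I the difference was 3.79 for NDUFA4, 1.34 for NDUFS4, 0.39 for NDUFA12 and -0.996 for NDUFA4L2. In complex III it was 1.31 for UQCRB, 0.74 for CYC1, 0.63 for UQCRFS1 and 0.42 for UQCRC1. The values of 8.85 for UQCR11 and 0.59 for UQCRQ rest on listed zeros, and UQCRQ was listed at 0 throughout the shRNA set, so there was no change to compare. In complex IV it was 0.58 for COX5B, 0.53 for COX6A1, 0.38 for COX7A2 and 0.32 for COX5A. In complex V it was 1.02 for ATP5D, 0.64 for ATP5I, 0.49 for ATP5G2, 0.43 for ATP5B, 0.36 for ATP5G3 and -0.53 for ATP5A1. The named members were partly chosen for large changes or large differences between the sets, so their share cannot be set against that of all genes. Over all 71 tested members the difference passed for 37. Of all 11427 tested genes, 33.8% passed this test in either direction. Knockdown against knockout, clones and handling cannot be told apart between the sets.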

How the results depend on the processing

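The CRISPR-set count of members that fell stayed between 44 and 54 with 1 library left out, with a median of -0.513 to -0.481 and 3 to 5 rises. In the shRNA set, leaving out 1 library gave 0 to 16 falls, 0 to 5 rises and a median of -0.126 to -0.0385, and 21 to 45 members differed between the sets. With upper-quartile scaling, 4 members fell and 4 rose in the shRNA set (median -0.023) and the CRISPR-set median was -0.448. With quantile normalization, 2 fell and 4 rose in the shRNA set (median -0.00683), 40 fell and 8 rose in the CRISPR set (median -0.282), and NDUFA12 changed sign in the CRISPR set (0.0455, adjusted p = 0.492 from limma). In the shRNA set, 5 fell and 0 rose without the variance trend, 0 fell and 1 rose with each set fitted alone, 1 rose among genes averaging 5 FPKM or more, and 1 rose without genes with a listed 0. With the replicate block, 0 fell and 0 rose in the shRNA set, against 48 falls and 4 rises in the CRISPR set and 28 differences between the sets. The block and the sets fitted alone leave fewer residual degrees of freedom. The causes of these differences were not tested. Samples share a replicate number by name only: the correlation of their deviations from the condition means was 0.146 for the shRNA libraries and 0.0239 for the CRISPR ones. The depth behind the FPKM is unknown, and with 2 libraries per condition small changes cannot be resolved.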
